A study of Mus musculus with 7 samples.

Results

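Intergenic H3K79me2 regions were taken as the rows of the read-count table on chromosomes 1 to 19 that overlap no RefSeq gene span of any biotype in GRCm38.p6, the assembly that mm10 names. There were 1278 such regions among 29397 in the table (4.35%), and 27266 regions on the same chromosomes overlapped a gene. The choice used positions alone, not counts. The libraries came from bone marrow-derived macrophages, cells grown from marrow of C57BL/6 mice for 7 to 8 days with L929-conditioned medium as the source of M-CSF, the growth factor that drives macrophage differentiation. Treated cells received 1 µM SGC0946, an inhibitor of the methyltransferase DOT1L, during differentiation, and control cells received DMSO, the solvent. There were 3 libraries of each, which the design text calls biological replicates, and all were made with the same H3K79me2 antibody. The labels name both WT and KO mice and do not tell which kind the marrow came from, and an input sample is named in the labels but was not used here.

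H3K79me2 is dimethylation of a lysine in the globular core of histone H3. DOT1L is the enzyme known to place it, and the mark is known to lie over the early transcribed part of active genes, where DOT1L travels with elongation complexes. Signal outside annotated genes is known from readthrough past gene ends, divergent transcription, long primary transcripts of miRNAs and active enhancers.

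The SGC0946 libraries held 3.13, 3.01 and 2.95 M counts in the table, against 16.7, 17.0 and 19.5 M in the DMSO libraries. These totals carry sequencing depth as well as the amount of mark, which cannot be told apart here. No spike-in is named in the labels, so each result below is given on unscaled counts (the percent of the mean DMSO count kept with SGC0946) or as a share of the library's counts. In chromatin of bulk cultures, fewer marked cells and less mark per cell cannot be told apart. Regions of the table overlapped 10 of 10 macrophage marker genes, 3 of 10 markers of other blood cells (Klf1, Mpo and Zbtb46) and 2 of 8 stromal or endothelial markers (Cxcl12 and Runx2).

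The sequences below belong to miRNA genes near intergenic regions described further on. For Mir146, Mir29b-1 and Mir34a and for the let-7b and let-7c-2 host gene the regions upstream were long, and for Mirlet7a-1 they were short. They are RefSeq mature miRNAs, GRCm38.p6, written 5′ to 3′ with the seed (bases 2 to 8) in capitals. The 3 let-7 miRNAs share the seed GAGGUAG, and the other 3 have seeds of their own. miR-146a-5p is encoded at chr11:43374435-43374456 on the minus strand, miR-29b-3p at chr6:31063025-31063047 on the minus strand and miR-34a-5p at chr4:150068473-150068494 on the plus strand. let-7a-5p of Mirlet7a-1 is at chr13:48538239-48538260 on the minus strand, let-7b-5p at chr15:85707325-85707346 and let-7c-5p of Mirlet7c-2 at chr15:85706616-85706637, both on the plus strand.
mmu-miR-146a-5p: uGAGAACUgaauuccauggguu
mmu-miR-29b-3p: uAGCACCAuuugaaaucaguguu
mmu-miR-34a-5p: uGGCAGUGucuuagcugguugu
mmu-let-7a-5p: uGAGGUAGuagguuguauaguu
mmu-let-7b-5p: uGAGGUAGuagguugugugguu
mmu-let-7c-5p: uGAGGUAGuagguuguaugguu

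The next sequences are promoter windows, 250 bases before to 50 after the RefSeq start, that a well-covered intergenic region enters. Of the dense regions described below, 11 reached into such a window, and the 3 with a DMSO mean of 100 counts or more are shown on the plus strand with the bases inside the intergenic region in capitals. The windows are chr9:25251741-25252040 (Septin7, a filament-forming GTPase of the cytoskeleton), chr11:49203042-49203341 (Zfp62, a zinc finger protein) and chr6:149309164-149309463 (Resf1, a factor that represses retroelements).
Septin7: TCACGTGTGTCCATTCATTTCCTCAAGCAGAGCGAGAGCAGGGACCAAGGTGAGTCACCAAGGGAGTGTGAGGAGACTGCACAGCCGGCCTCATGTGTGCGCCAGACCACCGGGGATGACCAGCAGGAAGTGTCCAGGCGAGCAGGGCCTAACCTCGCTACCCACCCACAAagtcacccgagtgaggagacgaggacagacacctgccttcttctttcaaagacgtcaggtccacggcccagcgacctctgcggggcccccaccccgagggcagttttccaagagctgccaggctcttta
Zfp62: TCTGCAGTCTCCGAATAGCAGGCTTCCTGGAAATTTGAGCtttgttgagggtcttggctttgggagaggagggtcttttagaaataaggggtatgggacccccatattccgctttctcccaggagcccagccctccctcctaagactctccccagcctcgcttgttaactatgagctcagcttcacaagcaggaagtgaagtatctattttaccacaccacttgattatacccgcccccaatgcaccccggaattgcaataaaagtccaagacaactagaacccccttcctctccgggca
Resf1: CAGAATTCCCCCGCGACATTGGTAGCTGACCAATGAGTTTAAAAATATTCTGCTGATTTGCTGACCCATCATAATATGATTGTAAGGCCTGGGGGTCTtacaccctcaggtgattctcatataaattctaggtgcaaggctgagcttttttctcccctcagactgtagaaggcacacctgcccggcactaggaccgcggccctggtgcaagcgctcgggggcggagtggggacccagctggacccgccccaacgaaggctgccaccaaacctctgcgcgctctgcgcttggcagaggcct

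The region before Septin7 covered 171 bases of its window and the one before Zfp62 covered 40. The region before Resf1 covered 98. The letters GGGCGG (a GC box) were found on either strand of the Zfp62 and Resf1 windows and in 36.0% of all 31396 autosomal windows of this length. CCAAT was found in the same 2 windows and in 37.3% of all windows, and GGAAGT, an ETS-type motif, in the Septin7 and Zfp62 windows and in 23.9% of all windows. No match of one motif overlapped a match of another. The windows held 14, 6 and 13 CpG in the order Septin7, Zfp62 and Resf1, and the median window held 7.

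The 3 promoter-entering regions lost most of their counts with SGC0946. The region before Septin7, chr9:25249782-25251911, had 29, 29 and 22 counts in SGC0946 libraries, against 168, 181 and 215 in DMSO libraries, and kept 14.2%. The region before Zfp62, chr11:49201472-49203081, had 21, 29 and 27 counts with SGC0946, against 160, 160 and 194 with DMSO, and kept 15.0%. The region before Resf1, chr6:149307349-149309261, had 30, 12 and 24 counts with SGC0946, against 129, 136 and 160 with DMSO, and kept 15.5%. All SGC0946 libraries lay below all DMSO libraries at each of the 3, as in 92.4% of all autosomal regions of the table. They ended 80, 180 and 148 bp from the annotated gene, in the same order, and over the 11 regions that entered a window the percent kept ran from 13.6% to 53.7%.

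Intergenic regions were of 2 kinds, which differed in density and in how their counts moved with SGC0946. A dense group of 674 regions had at least 15 DMSO counts per kb, and none of them had a higher mean count with SGC0946 than with DMSO. A sparse group of 604 regions (47.3%) had fewer than 15 DMSO counts per kb, and 595 of those had a higher mean with SGC0946. The limit of 15 was set after seeing that the densities fall into 2 clusters, and it uses the DMSO counts, so the lower percent kept of the dense group is a description and gets no test. Between 10 and 15 counts per kb lay 18 regions and between 15 and 20 lay 20, while 497 lay under 5 and 297 between 30 and 50. Gene-overlapping regions were sparse in 2.95% of cases (805 of 27266). Intergenic regions, which were 4.35% of the table, thus made up 42.9% of the 1409 sparse regions on the autosomes.

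**Figure D1:**
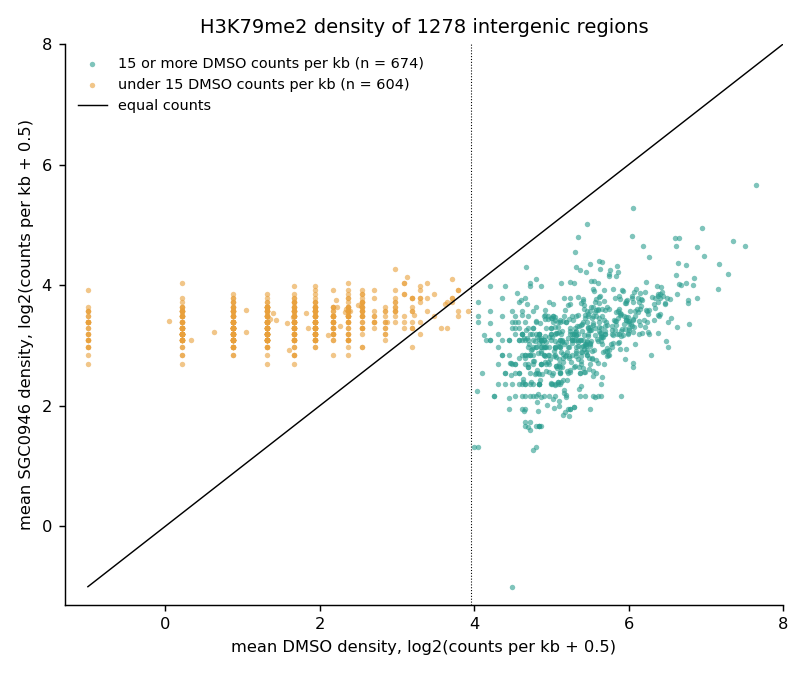
Mean H3K79me2 density with SGC0946 (y axis) against DMSO (x axis), both as log2 of counts per kb plus 0.5, with 1 point per intergenic region and the line of equal counts. The 674 dense regions lie right of the dotted limit of 15 DMSO counts per kb and below the line, and 595 of the 604 sparse regions lie above the line.

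Dense regions were mostly short, and fewer of them reached high densities than among gene-overlapping regions. Their median length was 657 bp (500 to 21756 bp), 233 of them measured 500 bp, and together they covered 0.808 Mb. DMSO density had a median of 38.5 counts per kb, with quartiles of 28.7 and 51.6 and a maximum of 199.9, where dense gene-overlapping regions had a median of 41.4, an upper quartile of 75.2 and a maximum of 570.1. Over the covered bases the DMSO libraries averaged 60.4, 61.8 and 70.6 counts per kb in dense intergenic regions and 138.4, 140.5 and 161.4 in dense gene-overlapping ones. With SGC0946 the dense intergenic regions kept a median of 20.0% of the DMSO count (quartiles 15.3% and 27.1%, range 0 to 85.2%). In 615 of the 674 (91.2%) all SGC0946 libraries lay below all DMSO libraries, and the same held for 97.3% of dense gene-overlapping regions. Over all autosomal regions it was 92.4%. That value, also set beside single regions in other paragraphs, includes the sparse regions, none of which showed this order.

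Sparse regions held few reads in any library. Of the 604, 577 measured 500 bp, none exceeded 871 bp, and the median DMSO count was 1 per library and region. In 28 of them all DMSO libraries were at 0. The highest SGC0946 count of a sparse region lay between 7 and 18 with a median of 10, while the other 2 SGC0946 libraries had a median of 2 counts. Exactly 1 SGC0946 library reached 7 counts in 563 of the 604 regions, 2 libraries did so in 39 and all 3 in 2. SGC0946 replicate 1 was the highest in 224 regions, replicate 2 in 263 and replicate 3 in 117. A DMSO library reached 7 counts in 26. Most sparse regions thus had 7 or more counts in a single SGC0946 library and few counts in the other 5 libraries.

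All SGC0946 libraries lay above all DMSO libraries in 110 intergenic regions, each of them sparse. That was 8.61% of the intergenic regions, and 0.743% of all autosomal regions showed the same order. Whether regions were called in each library or on pooled reads, and whether duplicate reads were removed, is not stated in the labels or notes, and their part in these counts was not tested.

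Distance to the nearest gene followed this split. Over all intergenic regions the median was 5424 bp, with quartiles of 1460 and 16007 bp and a range of 17 to 505208 bp. Dense regions lay a median of 2616 bp from a gene and at most 54281 bp. Sparse regions lay a median of 11209 bp away and included all 36 regions at 100 kb or more. Of the 242 regions within 1 kb of a gene, 80.2% were dense. The share was 64.2% of 383 regions at 1 to 5 kb, 47.4% of 401 at 5 to 20 kb and 20.4% of 216 at 20 to 100 kb.

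Among dense regions the percent kept had much the same median at each distance. It was 19.8% under 1 kb, 19.8% at 1 to 5 kb, 20.4% at 5 to 20 kb and 20.1% at 20 to 100 kb. Median DMSO density likewise lay between 37.0 and 40.3 counts per kb in these classes. By side of the gene, 275 dense regions upstream of the start of their nearest gene kept a median of 20.4%, and 211 beyond its 3′ end kept 20.0%. For the other 188 the strand was not in the sequence tables used. Across the 674 dense regions the percent kept was lower at higher DMSO density (Spearman's rho −0.45, given as a description because the DMSO count enters both). Over the 177 regions whose DMSO mean reached 50 counts, rho was −0.26 with density and 0.10 with distance.

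**Figure D2:**
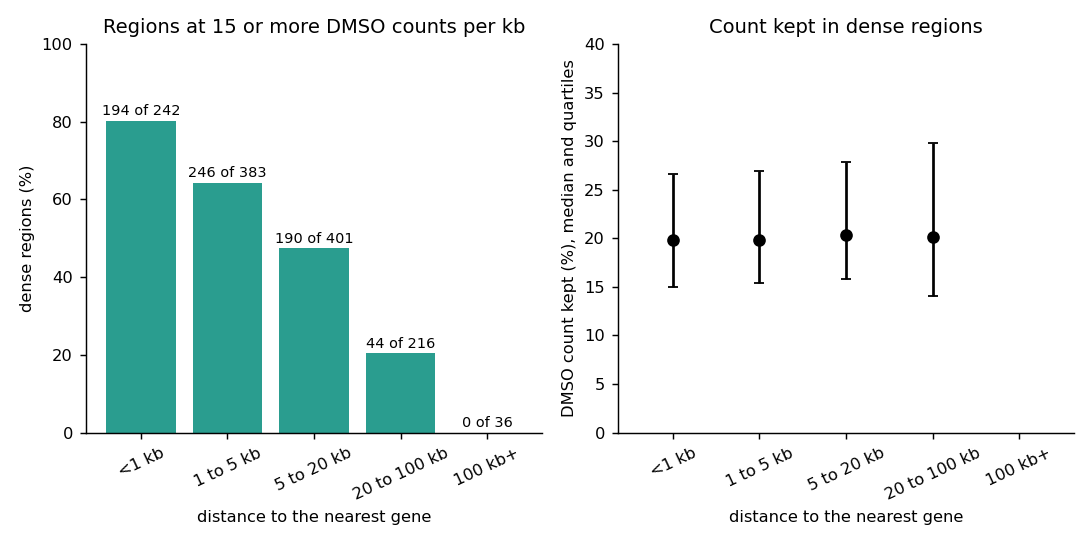
Left, percent of intergenic regions that are dense (at least 15 DMSO counts per kb) by distance to the nearest gene, with counts above the bars. Right, percent of the DMSO count that dense regions kept with SGC0946, as median and quartiles. The dense share is 80.2% under 1 kb and 0 at 100 kb or more, while the medians kept stay between 19.8% and 20.4%.

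Dense regions lay beside genes that carried the mark themselves. The nearest gene was protein-coding for 482 of the 674 (71.5%), a lncRNA for 123, a pseudogene for 44 and a miRNA for 14. For the sparse regions these numbers were 245 of 604 (40.6%), 205, 119 and 4. The nearest gene was itself overlapped by a region of the table for 516 dense (76.6%) and 182 sparse regions (30.1%). A gene-overlapping region lay within 5 kb of 379 dense (56.2%) and 54 sparse regions (8.94%), and the median distance to it was 3324 bp for dense and 78630 bp for sparse regions.

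Some dense regions lay in the same gap between genes. The 674 fell into 446 gaps between neighbouring genes, 327 of which held 1 region and 119 of which held 2 or more, with at most 11 in a gap. Whether they shared gaps more often than their number and the gap lengths would give was not tested. The 10 gaps with the most DMSO counts held 33.4% of the counts of all dense intergenic regions.

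At matched DMSO density, intergenic regions kept somewhat more of their counts than gene-overlapping regions. Between 15 and 30 DMSO counts per kb, 196 intergenic regions kept a median of 27.1% and 6395 gene-overlapping ones 22.6%. Between 30 and 50 the medians were 20.2% for 297 intergenic and 17.7% for 9665 gene-overlapping regions. Between 50 and 100 they were 16.4% (n = 162) and 13.9% (n = 5482), and between 100 and 200 they were 14.7% (n = 19) and 12.6% (n = 3351). The ratio of the percent kept by summed counts, intergenic over gene-overlapping, lay between 1.19 and 1.26 in these classes.

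In each class the ratio of intergenic to gene-overlapping counts was higher in all 3 SGC0946 libraries than in all 3 DMSO libraries. These classes were chosen after seeing the data and get no test. With any single library left out the ratios stayed between 1.15 and 1.28. Intergenic regions were shorter than gene-overlapping ones from 30 counts per kb up, with a median of 1227 bp against 3142 bp between 50 and 100. Restricted to regions of 500 bp, the medians were 27.3% against 23.7% between 15 and 30 counts per kb, and 21.6% against 19.1% between 30 and 50.

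**Figure D3:**
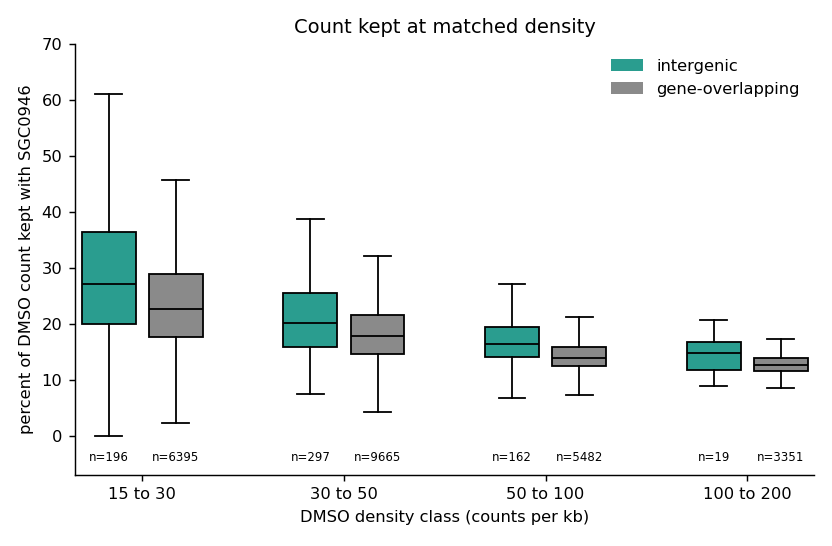
Percent of the DMSO count kept with SGC0946 in intergenic and gene-overlapping regions, by class of DMSO density (boxes, median and quartiles; whiskers to 1.5 times the quartile range; points beyond not drawn). The intergenic median is the higher one in all 4 classes, 27.1% and 22.6% in the lowest and 14.7% and 12.6% in the highest.

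Summed over all 1278 regions, intergenic counts made up 0.428%, 0.445% and 0.353% of the SGC0946 libraries, against 0.297%, 0.299% and 0.297% of the DMSO libraries. The means were 0.409% ± 0.0492 with SGC0946 and 0.298% ± 0.000912 with DMSO (SD, n = 3 each; exact 2-sided permutation p = 0.1, the smallest that 3 against 3 allows). Intergenic regions kept 23.4% of their summed DMSO count and gene-overlapping regions 17.0%, a ratio of 1.38 (exact permutation p = 0.1). Most of this gap came with the sparse regions. Their share of the library was 0.103% with SGC0946 and 0.00554% with DMSO. Each of them had 7 or more counts in an SGC0946 library, and their median DMSO count was 1. The tests over all 1278 regions include them and so support nothing. Dense regions alone kept 17.9%, a ratio of 1.05 to dense gene-overlapping regions (exact permutation p = 0.4, limit set after seeing the data). With regions of 500 bp left out the ratio was 1.04 (exact permutation p = 0.4). Where the mean reached 50 counts the direction turned, with 16.3% kept in 109 intergenic regions and a ratio of 0.962. Density is not matched in these sums, as gene-overlapping regions reached 570.1 DMSO counts per kb and intergenic ones 199.9.

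On unscaled counts nearly every tested intergenic region fell. The edgeR quasi-likelihood test with Benjamini-Hochberg adjustment called 577 of 586 tested regions lower at an adjusted p under 0.05 and 0 higher, where 99.7% of all 24895 tested regions were lower and 0.0201% higher. The median log2 fold change was −2.37 in the intergenic and −2.63 in all tested regions. None of the 586 was higher at an unadjusted p under 0.05 either, and no other tool was run on unscaled counts. All 586 were dense, since no sparse region passed the count filter. This filter could be met by the DMSO counts alone, the group in which these regions were high. The numbers called thus describe the tested regions only, and the 0 higher supports nothing. With no count filter, 648 of 1278 intergenic regions were called lower and 103 higher. Of the 9 among the 586 that did not pass the test, chr10:111102228-111102727 had 19, 15 and 14 counts with SGC0946, against 20, 25 and 20 with DMSO (adjusted p = 0.18 in edgeR), and the nearest genes were Gm29916 and Rpl6l. Another of the 9, chr10:60252922-60253421, had 18, 9 and 14 counts with SGC0946, against 26, 23 and 11 with DMSO (adjusted p = 0.11 in edgeR).

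As a share of the library, where a fold change is relative to the difference in totals, more tested intergenic regions rose than fell. Of 626 tested, 133 were called higher and 16 lower by edgeR, where 6.16% of all 23367 tested regions were higher and 23.3% lower. The 133 became 254, 234 and 405 without SGC0946 replicate 1, 2 and 3, and 38, 43 and 37 without DMSO replicate 1, 2 and 3, as the count filter then passed other numbers of regions. Of the 133, 72 were sparse regions that passed the filter only through their SGC0946 counts, so their calls support nothing. Among 554 dense regions tested, 61 were higher and 16 lower, with a median log2 fold change of 0.22 against −0.09 for all tested regions. The filter worked on the share of the library, so it asked for fewer counts in the smaller SGC0946 libraries. Some dense regions can thus have passed through their SGC0946 counts alone, and how many was not counted. The 61 calls and the median of 0.22 therefore support nothing either. At a mean over the 6 libraries of at least 50 counts, the median log2 fold change was −0.11 in 109 intergenic and −0.30 in all 11055 regions. Falls in share at the well-covered regions below are to be read beside that −0.30. Among the 109 intergenic regions, 12 were higher and 15 lower, where 7.00% of all regions at that depth were higher and 48.6% lower. With TMM factors, which moved the median of all regions by 0.14 on the log2 scale, these counts were 17 and 12, and with DESeq2 size factors (a move of 0.15) 18 and 11.

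The densest intergenic region was chr4:6349845-6357259, in the gap between Cyp7a1, the rate-limiting enzyme of bile acid synthesis, and Sdcbp, the scaffold protein syntenin, 8.42 kb from Sdcbp and 74.2 kb from Cyp7a1. It had 409, 344 and 366 counts in SGC0946 libraries, against 1357, 1448 and 1642 in DMSO libraries. All SGC0946 libraries lay far below all DMSO libraries, and the region kept 25.2%. Its share of the library was higher with SGC0946, by 0.56 on the log2 scale (SE 0.06, edgeR adjusted p = 5.1e-12). The region over Sdcbp, 6.91 kb away, kept 41.5%.

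The longest intergenic region, also among the densest, was chr15:68341358-68363113. It was 21.8 kb long and began 69 bp from Mir30d, a miRNA gene of 82 bp. It had 531, 518 and 564 counts with SGC0946, against 3533, 3902 and 4385 with DMSO, and kept 13.6%. Its share fell by 0.32 on the log2 scale (SE 0.05, edgeR adjusted p = 3.9e-07). The call was lost with DESeq2 size factors in edgeR (−0.17, adjusted p = 0.12) and in the DESeq2 Wald test (−0.21, adjusted p = 0.16). No gene-overlapping region lay within 82.1 kb.

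The other 6 of the 8 densest regions kept between 10.4% and 24.7%. The region near Gm33144, chr6:125532378-125540240, with Gm26728 on its other side, had 222, 181 and 211 counts with SGC0946, against 1202, 1236 and 1410 with DMSO. Between Kcnn4, a calcium-activated potassium channel, and Smg9, a component of the nonsense-mediated decay machinery, chr7:24390546-24395056 had 78, 85 and 77 counts with SGC0946, against 659, 698 and 744 with DMSO. Its share fell by 0.58 on the log2 scale (SE 0.10, edgeR adjusted p = 2.9e-06). The region 795 bp upstream of Capzb, an actin capping subunit, kept 14.0% and the one 9.95 kb upstream of B4galt5, a lactosylceramide synthase, kept 17.4%. At neither did the share pass the test (edgeR adjusted p = 0.052 and 0.9). At each of the 8 all SGC0946 libraries lay below all DMSO libraries, as in 92.4% of all autosomal regions.

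**Figure D4:**
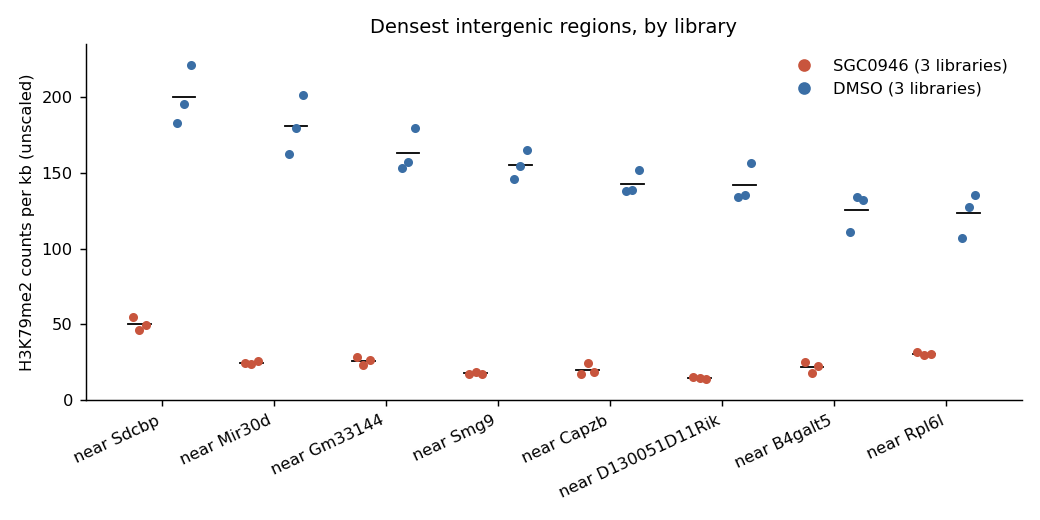
H3K79me2 counts per kb in each library at the 8 intergenic regions with the highest DMSO density, named by the nearest gene (points, 1 library each; bars, group means; unscaled counts; SGC0946 left, DMSO right). DMSO means lie between 123.5 and 199.9 counts per kb, and SGC0946 means between 14.8 and 50.3.

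miRNA genes stood beside several of the longest regions, a group chosen after its values were seen. In all, 14 dense regions had a miRNA gene as their nearest gene, 8 genes with spans of 65 to 127 bp, and the 14 held 13.0% of all intergenic DMSO counts in 56.5 kb. Their summed counts were 898, 888 and 865 with SGC0946, against 6405, 6564 and 7593 with DMSO, so that 12.9% was kept. These sums rest mostly on 3 regions. Of a DMSO mean of 6854 counts, the longest regions at Mir30d, Mir29b-1 and Mir146 held 3940, 1151 and 1147. In share, edgeR called 4 of the 14 lower and 0 higher, where 23.3% of all tested regions were lower. The single regions kept between 10.3% and 28.3%, with a median of 13.8%. The miRNA genes were Mir30d, Mir30b, Mir29b-1, Mir146, Mir34a, Mirlet7a-1, Mir142b and Mir8096. Of the 14 regions, 10 lay upstream of the hairpin and 1 downstream, and the strand was not in the tables for the 3 at Mir30b and Mir30d.

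Mir146 encodes miR-146a, a known brake on Toll-like receptor signalling. Upstream of it, chr11:43375560-43385351, 9.79 kb long, had 131, 136 and 123 counts with SGC0946, against 1190, 988 and 1262 with DMSO, and kept 11.3%. A second region, chr11:43374521-43375186, began 60 bp upstream of the hairpin with 8, 10 and 2 counts with SGC0946, against 28, 16 and 28 with DMSO. The libraries of the 2 groups did not overlap at either, the common case (SGC0946 below DMSO in 92.4% of all autosomal regions).

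Mir29b-1 encodes miR-29b, known to repress collagen mRNAs. A region of 12.4 kb, chr6:31067111-31079484, lay 4.02 kb upstream of its hairpin, between it and the lncRNA gene Lncpint. It had 130, 145 and 112 counts with SGC0946, against 1081, 1107 and 1266 with DMSO, and kept 11.2%. Its share fell by 0.61 on the log2 scale (SE 0.08, edgeR adjusted p = 7.8e-09). The region over Lncpint, 2.54 kb away, kept 17.5%.

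Mir34a encodes miR-34a, a known target of p53. The region chr4:150064738-150068420 ended 34 bp upstream of its hairpin and had 29, 30 and 25 counts with SGC0946, against 263, 209 and 273 with DMSO, so that 11.3% was kept. Next to it, chr4:150060515-150063975, 1.80 kb from the lncRNA gene Gm13067, had 36, 34 and 27 counts with SGC0946, against 316, 348 and 356 with DMSO. It kept 9.51%, and its share fell by 0.85 on the log2 scale (SE 0.15, edgeR adjusted p = 4.2e-06). The gene-overlapping region at Gm13067 kept 10.6%.

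The let-7b and let-7c-2 hairpins lie inside the lncRNA gene Lncppara, which RefSeq also lists as the let-7b host gene. Upstream of its start, 4 dense regions covered 27.8 kb of the gap to D130051D11Rik and ended 22.6 kb before the let-7c-2 hairpin. Together they had 361, 314 and 312 counts with SGC0946, against 3061, 3101 and 3492 with DMSO, and kept 10.2%, the least of the 10 gaps with the most counts. The first long region, chr15:85654009-85669040, kept 10.4%, with a share that fell by 0.71 (log2, SE 0.06, edgeR adjusted p = 3.6e-15). The second, chr15:85671275-85682951, kept 8.89%, with a share that fell by 0.94 (log2, SE 0.09, edgeR adjusted p = 2.7e-13). The nearest gene-overlapping region lay 176.7 kb from it, at Gtse1.

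Upstream of Mirlet7a-1, by contrast, the marked regions were small. The 3 regions there measured 0.53 to 0.869 kb and kept 28.3%, 21.7% and 14.0%. The nearest to the hairpin, chr13:48547492-48548021, had 3, 8 and 4 counts with SGC0946, against 15, 17 and 21 with DMSO.

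**Figure D5:**
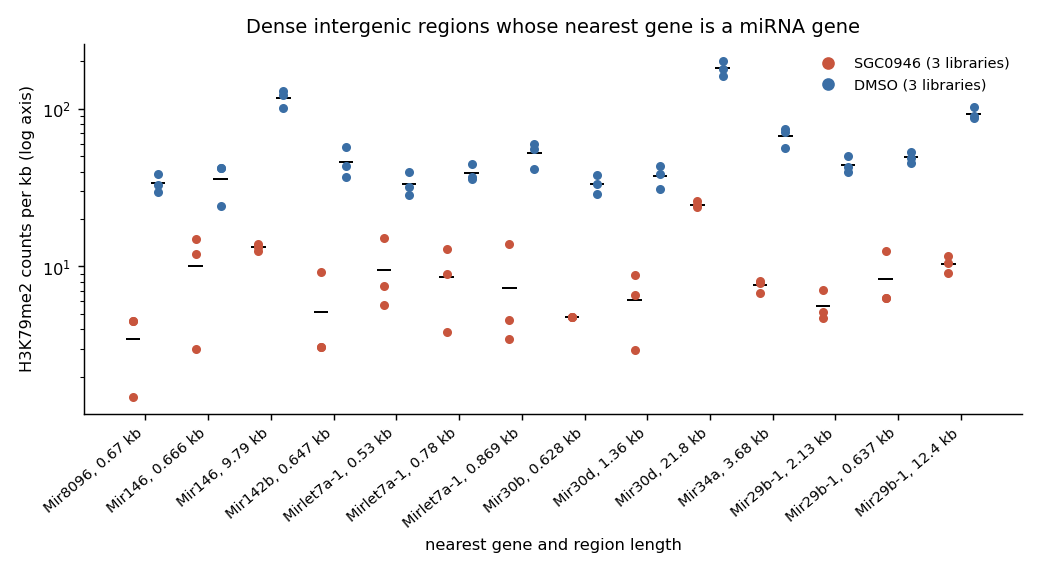
H3K79me2 counts per kb, on a log axis, in each library at the 14 dense intergenic regions whose nearest gene is a miRNA gene (points, 1 library each; bars, group means; SGC0946 left, DMSO right; region length beside the gene name). The mean with SGC0946 lies below the mean with DMSO in all 14, which keep between 10.3% and 28.3%.

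Of the 5 well-covered intergenic regions with the highest fold change in share, 4 lay in 2 runs on chromosome 10, upstream of Psap and of Osbpl8. The region over Psap, the precursor of the saposins that activate lysosomal lipid hydrolysis, is chr10:60269820-60301792 and kept 71.9%. The intergenic region chr10:60261211-60264219 lay 13.4 kb upstream of the gene. It had 126, 108 and 111 counts with SGC0946, against 167, 219 and 208 with DMSO, and kept 58.1%. Its share was higher with SGC0946 by 1.76 on the log2 scale (SE 0.12, edgeR adjusted p = 1.3e-20), while its unscaled count fell by 0.78 (log2, SE 0.16, edgeR adjusted p = 6.4e-07).

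Next to it, chr10:60256872-60260644 had 109, 109 and 94 counts with SGC0946, against 261, 238 and 243 with DMSO, and kept 42.0%. In all, 8 regions lay in this run upstream of Psap, covering 14.0 kb, and they kept between 21.9% and 68.3%. Their summed counts were 405, 347 and 361 with SGC0946, against 935, 984 and 1040 with DMSO, a percent kept of 37.6%. The region nearest the Gm2038 end of the run, chr10:60244447-60248637, kept 25.2%.

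A second run lay upstream of Osbpl8, which encodes a lipid transfer protein of the endoplasmic reticulum and whose own region, chr10:111163627-111282988, kept 56.9%. Its 7 intergenic regions covered 26.0 kb with 636, 616 and 607 counts with SGC0946, against 2213, 2548 and 2710 with DMSO, and kept 24.9%. Osbpl8 was the nearest gene only for the region closest to it, and the others were nearest to Gm8873, Rpl6l or Gm29916. A gene-overlapping region at Rpl6l, inside the run, kept 24.2%. Within the run the percent kept varied from 18.5% to 73.8%, and did not fall steadily away from the gene. The region closest to Osbpl8, chr10:111160767-111163581, kept 18.5%, whereas its neighbour chr10:111158107-111160025 kept 43.3%, with 33, 32 and 28 counts with SGC0946, against 70, 73 and 72 with DMSO. The share of that neighbour rose by 1.34 on the log2 scale (SE 0.20, edgeR adjusted p = 9.8e-08). At chr10:111115744-111120247, with 76, 79 and 91 counts with SGC0946, against 179, 213 and 190 with DMSO, the share rose by 1.31 on the log2 scale (SE 0.13, edgeR adjusted p = 4.3e-13).

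The fifth of the regions with the highest fold change in share was chr6:49033943-49035684, 834 bp upstream of Gpnmb, a glycoprotein of lysosome-rich macrophages. It had 33, 36 and 33 counts with SGC0946, against 103, 84 and 111 with DMSO, and kept 34.2%, close to the 34.9% of the region over Gpnmb itself. Its share rose by 1.00 on the log2 scale (SE 0.19, edgeR adjusted p = 8.4e-06).

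At the other end, chr7:24388178-24389308, 2.97 kb beyond the 3′ end of Kcnn4, had 9, 12 and 12 counts with SGC0946, against 109, 115 and 148 with DMSO. It kept 8.87%, while the region over Kcnn4 kept 15.5%. The region chr2:163423301-163425004, beyond the 3′ end of the lncRNA gene 2900093K20Rik, had 10, 9 and 12 counts with SGC0946, against 105, 110 and 122 with DMSO. It kept 9.20%, against 25.8% in the region over Oser1 that ended 428 bp away. Both shares fell, by 0.94 (log2, SE 0.25, edgeR adjusted p = 0.0016) and by 0.89 (log2, SE 0.25, edgeR adjusted p = 0.004). Neither passed in the DESeq2 Wald test (adjusted p = 0.057 and 0.09, in that order).

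The percent kept of neighbours was weakly to moderately related over all such pairs. There were 83 pairs of an intergenic region and its nearest gene-overlapping region, at most 5 kb apart and both with a DMSO mean of 50 counts or more. Spearman's rho of the percent kept was 0.32, and Pearson's r of its log2 value was 0.47. Both are descriptions over pairs that share libraries and that draw on 76 gene-overlapping regions. The medians were 15.9% in the intergenic and 15.8% in the gene-overlapping member. The intergenic member kept less in 48 of 83 pairs and was less dense in 76, with a median of 63.0 DMSO counts per kb against 159.

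Marked regions were also found far from genes. The 5 farthest whose DMSO mean reached 50 counts kept between 12.0% and 25.3%, and 4 are described here, without the one that kept the most. A pair of regions lay between D730003I15Rik and Nenf, a secreted neurotrophic factor. The larger, chr1:191270863-191275101, had 60, 63 and 42 counts with SGC0946, against 460, 457 and 456 with DMSO, and kept 12.0%. On chromosome 8, chr8:128166349-128171220, 33.5 kb beyond the 3′ end of A930035F09Rik, had 70, 72 and 63 counts with SGC0946, against 417, 484 and 535 with DMSO, and kept 14.3%. The other two kept 16.8% (near Nenf) and 13.4% (near Trappc8). SGC0946 libraries lay below DMSO libraries at all 4, as they did in 92.4% of all autosomal regions.

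For 20 dense regions the nearest coding gene was one of 8 of the 28 macrophage identity genes, namely Cebpb, Ctsb, Ctsd, Gpnmb, Lgals3, Maf, Msr1 and Spi1. They were 2.97% of dense regions, and the 28 genes were 0.128% of coding genes. These values were 1.19% and 0.114% for the immediate early list and 1.19% and 0.0685% for the housekeeping list. For the sterol list they were 0.297% and 0.0685%. Regions in a row beside 1 gene are counted singly, so the 20 are not separate sites. One share counts regions and the other counts genes, so the pair does not measure an enrichment. The 20 regions lay a median of 13747 bp from the gene. All 28 genes were overlapped by a region themselves, as were 43.4% of all coding genes. The median kept was 25.6% for these 20, 17.4% for the immediate early list, 25.9% for the housekeeping list, 33.2% for the sterol list and 20.0% for all dense regions. The group holds transcription factors of the myeloid lineage (Spi1, Cebpb, Maf), lysosomal proteases (Ctsb, Ctsd), a scavenger receptor (Msr1) and a galactose-binding lectin (Lgals3).

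Lgals3 had the longest row, 5 regions 2.30 to 14.5 kb upstream of its start that kept between 20.2% and 34.3%. Their nearest genes of any biotype were Gm41147 and Gm52166, and for the Cebpb regions it was Gm52570. The largest, chr14:47362407-47365351, had 69, 59 and 62 counts with SGC0946, against 209, 209 and 255 with DMSO. Beside Spi1, which encodes the lineage factor PU.1, chr2:91080122-91082271 lay 103 bp from the gene and had 24, 26 and 20 counts with SGC0946, against 116, 139 and 125 with DMSO, so that 18.4% was kept. Of the 4 regions upstream of Ctsd, chr7:142400230-142403510 was the largest, with 38, 40 and 34 counts with SGC0946, against 220, 188 and 225 with DMSO, and kept 17.7%. The SGC0946 libraries lay below the DMSO libraries at each of these 3, again as in 92.4% of all autosomal regions.

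The other lists had fewer regions. For 8 dense regions the nearest coding gene was one of 6 of the 25 immediate early and signalling genes (Atf3, Ier2, Jun, Mcl1, Myc and Zfp36l2), at a median of 51200 bp. The 2 nearest to Jun lay 165.1 and 166.2 kb from it, and their nearest gene of any biotype was Gm12708. The largest of the 8, chr17:84122316-84126123, lay 57.8 kb from Zfp36l2, an mRNA decay factor, and its nearest gene of any biotype was Gm19696. It had 70, 54 and 53 counts with SGC0946, against 418, 426 and 452 with DMSO, and kept 13.7%. Of the housekeeping list, Actb, which encodes beta-actin, had chr5:142928256-142932635 at 20.3 kb, with 92, 88 and 84 counts with SGC0946, against 372, 453 and 479 with DMSO, and 20.2% was kept there. Of the 15 sterol and lipid synthesis genes, Hmgcs1, an early enzyme of cholesterol synthesis, had 2 regions nearby that kept 36.8% and 29.6%. These regions were few and mostly small, and no test of the lists was made.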

How the data were processed

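Per the labels, H3K79me2-bearing chromatin of macrophages was immunoprecipitated and sequenced as single reads. The authors deposited whole-number read counts per region, 1 shared set of regions for the 6 libraries, unscaled. The submitters' processing notes name HISAT2, HOMER 4.11.1, bedtools 2.27.0, ChIPseeker 1.20.0, R 3.6.3 and mm10, without their roles; how regions were called and duplicates treated, which can change low counts most, is not stated in those notes or the labels. Starts were read as zero-based and are given 1-based.

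Regions were set against RefSeq gene spans of GRCm38.p6 with Python 3.11.15, pandas 2.3.3, numpy 2.4.6, scipy 1.17.1 and matplotlib 3.10.9. Distances run to the nearest span of any biotype. Counts were fitted over the whole table in R 4.3.3 by the quasi-likelihood F test of edgeR 4.0.16 (filterByExpr, Benjamini-Hochberg over all regions tested, threshold 0.05), once with library totals (share of library) and once with equal library sizes (unscaled). The fit was tested on simulated data. For single values per library, exact 2-sided permutation tests were used. Totals were 2.95 to 19.5 M counts, and the biological coefficient of variation was 3.57%. Libraries of 1 group differed by more than sampling noise (chi-square per degree of freedom 1.32 to 2.38).

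Regions were named by rule: among those with a mean of at least 50 DMSO counts, the 8 densest and the 5 farthest from genes; the 5 longest; and, among those past the threshold in share with a mean of at least 50 counts, the 5 highest and the 5 lowest. A farthest region and part of the housekeeping list are not reported here. The miRNA-adjacent, gene-list, promoter-entering and run regions were added. Members, lists and the limit of 15 counts per kb were chosen with earlier results of these data known. Alternatives were TMM, DESeq2 1.42.0, other filters, a replicate block and leaving out each library.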

Additional observations from a re-analysis of the deposited data

How the results depend on the processing

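The number of intergenic regions called higher in share, 133, differed between settings. It was 677 with no count filter, 634 with the DESeq2 Wald test, which changes the tool, the scaling and the filter together, 15 at a mean of at least 50 counts, and 37 to 405 with 1 library left out, where the filter tested between 208 and 1013 regions. The number lower in share, 16, was 7 in DESeq2 and 14 to 19 with 1 library left out. On unscaled counts 0 regions were called higher, but 103 with no filter and 0 to 1 with 1 library left out; lower calls were 577, and 109 of 109 at a mean of at least 50 counts. The median percent kept over tested regions, 21.1%, was 41.2% with no filter, 15.8% at a mean of at least 50 counts and 17.0% to 30% with 1 library left out. At a mean of at least 50 counts the share of intergenic counts with SGC0946 minus that with DMSO turned to −0.00925 percentage points and the ratio of percent kept to 0.962. Sparse regions alone kept 317.4%, and that alternative was chosen after seeing the data.

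Of 311 alternatives over the 24 named regions, 283 left the call as it was, 5 lost it (4 of these in the DESeq2 Wald test, at chr7:24388178-24389308, chr2:163423301-163425004, near Mir30d and at chr1:191270863-191275101, and 1 with DESeq2 size factors near Mir30d), 8 gained it and 15 turned its direction. The last were regions with no call in share (log2 values): near Gm33144 0.016 in DESeq2, 0.054 with its size factors and 0.041 with TMM; near Lilr4b 0.036 and 0.024 with these scalings; at chr1:191266892-191268770 near Nenf 0.085, 0.128 and 0.116 in that order, and −0.156 to 0.048 with 1 library left out; near B4galt5 −0.065 to 0.145 with 1 library left out. Same-numbered libraries did not deviate together (r between −0.11 and 0.01 over 11055 regions). For differently numbered libraries r lay between −0.097 and 0.10. With 3 libraries per group such small values cannot tell whether the samples were paired, under these numbers or others. With the replicate block 135 regions were higher and 14 lower in share, and 576 lower on unscaled counts. Low depth limits the sparse regions, where a median DMSO count of 1 gives no reliable percent kept.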

Other observations

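A few intergenic regions had a library that stood apart together with gene-overlapping regions of the same locus. Between Ide and Kif11 on chromosome 19, 2 dense regions had 215, 280 and 104 summed counts with SGC0946, against 1341, 714 and 1567 with DMSO, so that SGC0946 replicate 3 and DMSO replicate 2 were the low libraries of their groups. The region over Ide, chr19:37334372-37341133, had 87, 108 and 46 counts with SGC0946, against 491, 228 and 596 with DMSO. The region at Fgfbp3, chr19:36911172-36956547, had 2640, 2477 and 1008 counts with SGC0946, against 13789, 5770 and 16835 with DMSO. Between them, the largest region over Cpeb3, chr19:37207490-37217748, had 162, 153 and 145 counts with SGC0946, against 1132, 1211 and 1290 with DMSO.

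In the gap between Mthfs and Gm40543, 8 dense regions had 229, 186 and 189 summed counts with SGC0946, against 1255, 1233 and 1414 with DMSO, and kept 15.5%.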
